A study of Rattus norvegicus with 4 samples.

Results

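The miR-200 family and 3 further miRNAs of epithelia were followed through small RNA libraries of rat liver. The 8 names, all without an asterisk, were chosen by name and not by their values: miR-200b, miR-200a and miR-429, miR-200c and miR-141, and miR-31, miR-203 and miR-205. Earlier results of these data were known at that time. All 8 were among the 680 rat miRNA names in the deposited files, and 7 had at least 1 read in some library. The study set liver tissue labelled as hepatic fibrosis against liver tissue labelled as normal, with 2 deposited files in each group, to ask which miRNAs differ between them. The labels give neither the strain, age or sex of the rats nor the agent that caused the fibrosis, nor whether 1 rat or several were sampled in a group. The second fibrosis file and the second normal file hold the same value for all 680 names, so they were counted as 1 library. It is called the duplicated library here, and its tissue is not settled by its 2 labels. Fibrosis replicate 1 and normal replicate 1 are therefore the only libraries that stand under 1 label each, and with 1 library a group no p-value can compare the tissues.

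The miR-200 family is known from epithelial cells, where it represses the transcription factors Zeb1 and Zeb2, which repress E-cadherin, and so helps to keep cells epithelial. Its members come from a pair of transcripts, one that carries miR-200b, miR-200a and miR-429 and one that carries miR-200c and miR-141. In liver the family is known mainly from the cells that line the bile ducts, while hepatocytes, the bulk of the organ, hold the liver miRNA miR-122. miR-203 and miR-205 are best known from the skin and other stratified epithelia, and miR-31 from epithelia and other tissues. In bulk tissue, fewer cells of a type and less RNA per cell cannot be told apart.

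The family divides into classes by its seed, bases 2 to 8 of the mature miRNA, which pair with target messenger RNAs. The genes of all 8 members are in RefSeq (build GRCr8), and the mature sequences of 5 are shown here 5′ to 3′ with the seed in capitals, because the text adds up reads by seed and because members near to each other in sequence may be confused in counting.
miR-200c: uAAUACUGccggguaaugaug
miR-141: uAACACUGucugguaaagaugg
miR-31: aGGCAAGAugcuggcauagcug
miR-203: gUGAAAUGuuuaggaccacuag
miR-205: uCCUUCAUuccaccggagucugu
miR-141 and miR-200c come from the same transcript and are equal at 17 of their first 21 positions. Counted from 1 at the 5′ end, miR-141 first, they differ by C4U, U9C, U11G and A17U, and only 1 of these 4 positions lies in the seed. miR-200b and miR-429 are known to share the seed of miR-200c, and miR-200a that of miR-141. Reads of members this close may be assigned to each other, so the separate levels of the family members are less certain than the sum of the family. Members that share a seed lie in both clusters, so the sums of the clusters may be affected too. miR-31, miR-203 and miR-205 have seeds of their own and share none with the family.

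In GRCr8 the printed miRNAs lie at chr4:159209969-159209989 (miR-200c) and chr4:159209540-159209561 (miR-141), chr5:108714906-108714927 (miR-31) and chr13:107564588-107564610 (miR-205), all on the minus strand, and at chr6:137020756-137020777 (miR-203) on the plus strand. The hairpins of miR-200c and miR-141 are 346 bases apart, with Phb2 and Ptpn6 as the nearest protein-coding genes on either side. The hairpins of miR-200b, miR-200a and miR-429 lie within 1908 bases of the minus strand of chromosome 5, inside the interval annotated as Ttll10. Each cluster thus has its own chromosome, and members of 1 cluster are not separate measurements of its transcript.

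The libraries were deep, but the family was rare in them. The deposited values are reads per 1000000 reads (RPM), and 1 read equals 0.144 RPM in fibrosis replicate 1, 0.157 RPM in the duplicated library and 0.1414 RPM in normal replicate 1. The totals behind them were 6951148, 6357069 and 7070374 reads in the same order, and 0 reads are compatible with levels of at most 0.432, 0.472 and 0.424 RPM. The 95% intervals below are exact Poisson intervals for levels and exact binomial intervals for ratios and shares. Intervals and limits cover only the error of counting. They may be too narrow even for that, because PCR copies of a molecule were not marked as such.

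The 5 names of the miR-200 family together stood at 12.1 RPM in fibrosis replicate 1 (84 reads, 9.64 to 15.0), 8.65 RPM in the duplicated library (55 reads, 6.52 to 11.3) and 11.9 RPM in normal replicate 1 (84 reads, 9.48 to 14.7). The 2 libraries that stand under 1 label each held the same number of family reads, and the duplicated library held fewer. These reads were 0.00240%, 0.00165% and 0.00230% of all reads on listed miRNAs in the same order. miR-122, the hepatocyte miRNA, had 20184 reads for each family read in fibrosis replicate 1 (16303 to 25305), 28657 in the duplicated library (22016 to 38040) and 22149 in normal replicate 1 (17890 to 27768). Counting the family against miR-122 instead of all reads gave 49.5 family reads per 1000000 miR-122 reads in fibrosis replicate 1, 34.9 in the duplicated library and 45.1 in normal replicate 1.

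**Figure D1:**
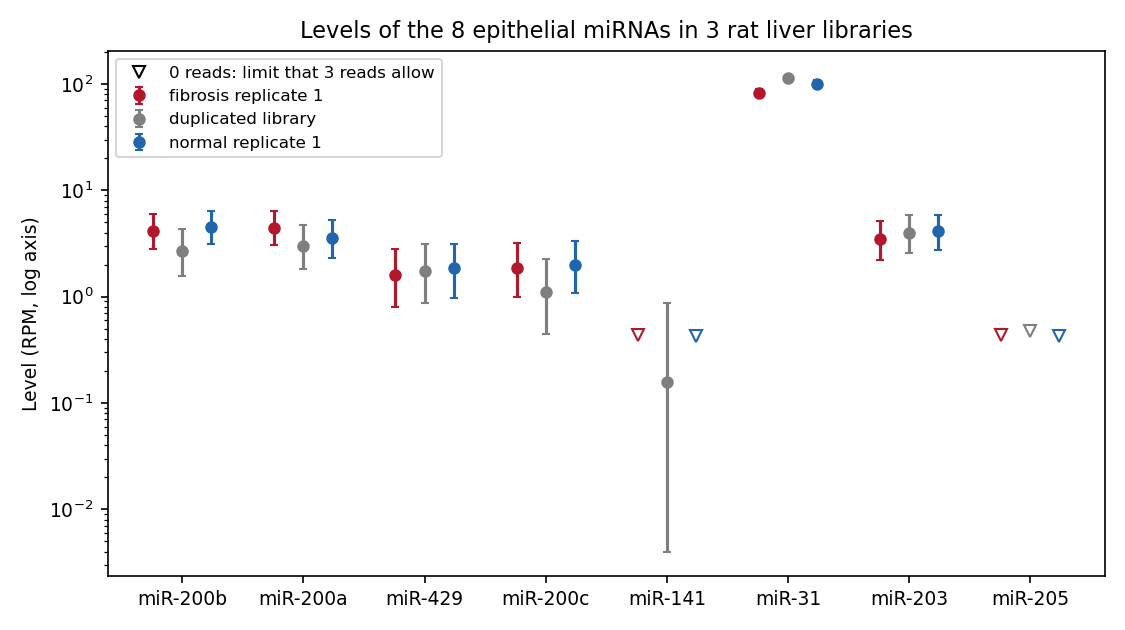
Level of each of the 8 miRNAs (RPM, log axis) in fibrosis replicate 1, the duplicated library and normal replicate 1. Points are single libraries, bars are 95% Poisson intervals of the reads, and open triangles mark 0 reads at the limit that 3 reads allow. miR-31 stands near 100 RPM in all 3 libraries (82.1, 113.7 and 100.3 RPM), miR-200b, miR-200a and miR-203 lie between 2.67 and 4.53 RPM, and miR-205 has no reads.

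Most of the family signal came from the cluster of miR-200b, miR-200a and miR-429. It stood at 10.2 RPM in fibrosis replicate 1 (71 reads, 7.98 to 12.9), 7.39 RPM in the duplicated library (47 reads, 5.43 to 9.83) and 9.90 RPM in normal replicate 1 (70 reads, 7.72 to 12.5). The cluster of miR-200c and miR-141 stood at 1.87 RPM (13 reads, 0.996 to 3.20), 1.26 RPM (8 reads, 0.543 to 2.48) and 1.98 RPM (14 reads, 1.08 to 3.32) in the same order. In reads, the first cluster exceeded the second 5.46-fold in fibrosis replicate 1 (3.0 to 10.8), 5.88-fold in the duplicated library (2.75 to 14.4) and 5.0-fold in normal replicate 1 (2.79 to 9.61). All 3 intervals excluded 1, and all 3 overlapped each other. Here and below, ratios between different miRNAs of a library compare reads. Whether equal reads of different miRNAs stand for equal amounts was not tested.

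miR-200b, a repressor of Zeb1 and Zeb2, stood at 4.17 RPM in fibrosis replicate 1 (29 reads), 2.67 RPM in the duplicated library (17 reads) and 4.53 RPM in normal replicate 1 (32 reads). miR-200a, its neighbour with the other seed, stood at 4.46 RPM (31 reads), 2.99 RPM (19 reads) and 3.54 RPM (25 reads) in the same order. For both, the duplicated library was the lowest of the 3. miR-429, the last hairpin of that transcript, stood at 1.58 RPM (11 reads), 1.73 RPM (11 reads) and 1.84 RPM (13 reads), with almost the same number of reads in each library.

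miR-200c, which has the seed of miR-200b, stood at 1.87 RPM in fibrosis replicate 1 (13 reads), 1.10 RPM in the duplicated library (7 reads) and 1.98 RPM in normal replicate 1 (14 reads). miR-141, made from the same transcript, had 0 reads in fibrosis replicate 1, 1 read in the duplicated library and 0 reads in normal replicate 1. The only miR-141 read thus lay in the library whose tissue is not settled, at 0.157 RPM, below the limit for 0 reads. miR-200c held 100% of the reads of this cluster in fibrosis replicate 1 (75.3 to 100), 87.5% in the duplicated library (47.3 to 99.7) and 100% in normal replicate 1 (76.8 to 100). In the other cluster, by contrast, miR-200a, which shares its seed with miR-141, had as many reads as miR-200b within counting error. Whether reads of miR-141 were assigned to miR-200a was not tested.

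The shares of the larger cluster's members had overlapping intervals in the 3 libraries. miR-200b took 40.8% of its reads in fibrosis replicate 1 (29.3 to 53.2), 36.2% in the duplicated library (22.7 to 51.5) and 45.7% in normal replicate 1 (33.7 to 58.1). miR-200a took 43.7% (31.9 to 56.0), 40.4% (26.4 to 55.7) and 35.7% (24.6 to 48.1), so that miR-200a led in fibrosis replicate 1 and the duplicated library and miR-200b in normal replicate 1, with intervals that overlap throughout. miR-429 was the smallest part, at 15.5% (8.0 to 26.0), 23.4% (12.3 to 38.0) and 18.6% (10.3 to 29.7). Grouped by seed, the class of miR-200b, miR-200c and miR-429 had 53 reads in fibrosis replicate 1, 35 in the duplicated library and 59 in normal replicate 1. The class of miR-200a and miR-141 had 31, 20 and 25 reads, or 36.9% of the family reads (26.6 to 48.1), 36.4% (23.8 to 50.4) and 29.8% (20.3 to 40.7).

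**Figure D2:**
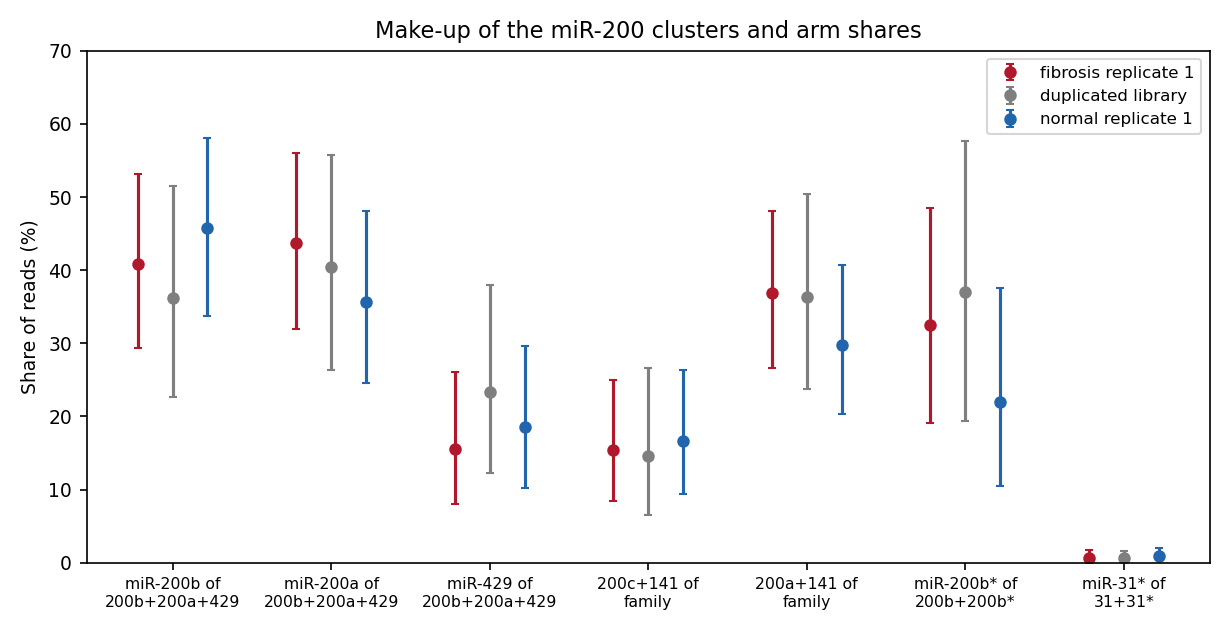
Share of reads (%) of single members in their cluster, of the miR-200c and miR-141 cluster and of the miR-200a and miR-141 seed class in the family, and of the asterisk arm among both arms, in fibrosis replicate 1, the duplicated library and normal replicate 1. Points are single libraries and bars 95% binomial intervals. The intervals of the 3 libraries overlap for every share, and the asterisk arm takes 21.95% to 37.0% for miR-200b but under 1% for miR-31.

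The asterisk arm, the strand of the hairpin that is usually discarded, was read for miR-200b and not for its neighbour. Both, the 5p arms in RefSeq's names, are shown because they share a seed and yet had different counts.
miR-200b*: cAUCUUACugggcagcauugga
miR-200a*: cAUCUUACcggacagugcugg
They lie at chr5:171931548-171931569 (miR-200b*) and chr5:171930770-171930790 (miR-200a*), both on the minus strand of GRCr8, and 16 of their first 21 positions are equal. Counted from the 5′ end, miR-200a* first, they differ by C9U, A12G, U16C, G17A and C18U. miR-200b* had 14 reads in fibrosis replicate 1, 10 in the duplicated library and 9 in normal replicate 1, while miR-200a* had 0 in all 3. miR-200b* made up 32.6% of the reads of both miR-200b arms in fibrosis replicate 1 (19.1 to 48.5), 37.0% in the duplicated library (19.4 to 57.6) and 21.95% in normal replicate 1 (10.6 to 37.6). For miR-200a*, 0 of 31, 0 of 19 and 0 of 25 reads give upper bounds of 11.2%, 17.6% and 13.7% in the same order. In fibrosis replicate 1 and the duplicated library this bound lies below the lower bound of the miR-200b* share, and in normal replicate 1 it does not.

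Among all arm pairs with at least 10 reads, an arm share like that of miR-200b* was uncommon. In fibrosis replicate 1 14 of 81 pairs had a higher share of the asterisk arm, in the duplicated library 13 of 77 and in normal replicate 1 14 of 79, and the median share was below 0.1% in each library. miR-200c*, miR-141* and miR-203* had 0 reads throughout. miR-31* had 4 reads in fibrosis replicate 1, 5 in the duplicated library and 7 in normal replicate 1, or 0.696% (0.190 to 1.77), 0.687% (0.223 to 1.60) and 0.978% (0.394 to 2.0) of both miR-31 arms.

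miR-31 had the most reads of the 8 by a wide margin. It stood at 82.1 RPM in fibrosis replicate 1 (571 reads, 75.5 to 89.2), 113.7 RPM in the duplicated library (723 reads, 105.6 to 122.3) and 100.3 RPM in normal replicate 1 (709 reads, 93.0 to 107.9). Fibrosis replicate 1 was the lowest of the 3 and the duplicated library the highest. It ranked 32nd among the listed names in fibrosis replicate 1, 26th in the duplicated library and 31st in normal replicate 1, where miR-200b ranked 95th, 110th and 98th. Its reads outnumbered those of the whole miR-200 family 6.80-fold in fibrosis replicate 1 (5.40 to 8.65), 13.1-fold in the duplicated library (9.99 to 17.6) and 8.44-fold in normal replicate 1 (6.72 to 10.7). The interval of the duplicated library did not overlap that of fibrosis replicate 1, but it overlapped that of normal replicate 1. miR-31 therefore did not follow the family between the duplicated library and fibrosis replicate 1. The duplicated library held the most miR-31 and the fewest family reads, though the family's ratios between libraries had intervals that included 1.

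miR-203, which restrains proliferation of stem cells in the skin, stood at 3.45 RPM in fibrosis replicate 1 (24 reads), 3.93 RPM in the duplicated library (25 reads) and 4.10 RPM in normal replicate 1 (29 reads). Its level was close to those of miR-200b and miR-200a. miR-205, a miRNA of basal cells of stratified epithelia, had 0 reads in all 3 libraries. A further name in the files, miR-3545-3p, was singled out after its values were seen, since RefSeq places it on the opposite strand of the miR-203 hairpin under the name miR-203b-3p. It had 8 reads in fibrosis replicate 1, 3 in the duplicated library and 12 in normal replicate 1, so reads are listed for both strands of this locus.

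In the order of levels, neighbours rarely differed beyond counting error. miR-31 exceeded the next member in all 3 libraries. miR-429 exceeded miR-141 in fibrosis replicate 1 and normal replicate 1, where it stood next above it. No other neighbours in the order, among miR-200a, miR-200b, miR-203, miR-200c and miR-429, differed beyond counting error in any library. Nor did miR-200c and miR-141 in the duplicated library, at 7 reads against 1, or miR-141 and miR-205 in any library.

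Between fibrosis replicate 1 and normal replicate 1 the family as a whole differed little. The ratio of the family was 1.02 (0.743 to 1.39), an interval that includes 1 and excludes a 1.5-fold difference between these 2 libraries in either direction. It lay on the other side of 1 with upper-quartile factors (0.968) and with listed reads other than miR-122 as the total (0.990). The ratio was 1.03 (0.731 to 1.46) for the cluster of miR-200b, miR-200a and miR-429, and 0.944 (0.409 to 2.17) for the cluster of miR-200c and miR-141, whose few reads leave more than 2-fold differences within the interval. Per miR-122 read the family ratio was 1.10 (0.801 to 1.503). With 1 library on each side the difference has no replicate check and holds for these libraries, not for the tissues.

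Of the single members, miR-200a had a ratio of 1.26 (0.721 to 2.23), miR-200b of 0.922 (0.538 to 1.57), miR-429 of 0.861 (0.349 to 2.08), miR-200c of 0.944 (0.409 to 2.17) and miR-203 of 0.842 (0.469 to 1.5). All 5 intervals included 1. Only miR-31, at 0.819 (0.732 to 0.916), had an interval that excluded 1. miR-141 and miR-205 had no reads in either library, so no ratio was formed. In this pair 6 members averaged 1 RPM or more. Of these, 0 were past 1.5-fold, where 28 of 147 miRNAs with such an average, or 19%, were. The 1 interval that excluded 1 stands beside 53 of 147, or 36.1%, over all miRNAs, so that a share of 1 in 6 is no higher than the background. Among the 6 members, 5 were lower in fibrosis replicate 1 and 1 higher, with a median log2 ratio of -0.17, against 95 lower and 52 higher of all 147 and a median of -0.13. The 28 comprised 12 higher and 16 lower, and this division moved with the scaling. It was 17 higher and 13 lower under TMM or DESeq2 size factors, 16 and 15 when the total was the reads on listed miRNAs, 9 and 21 when that total omitted miR-122, and 8 and 22 under upper-quartile factors. Under these 5 scalings 0 of the 6 members lay past 1.5-fold.

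**Figure D3:**
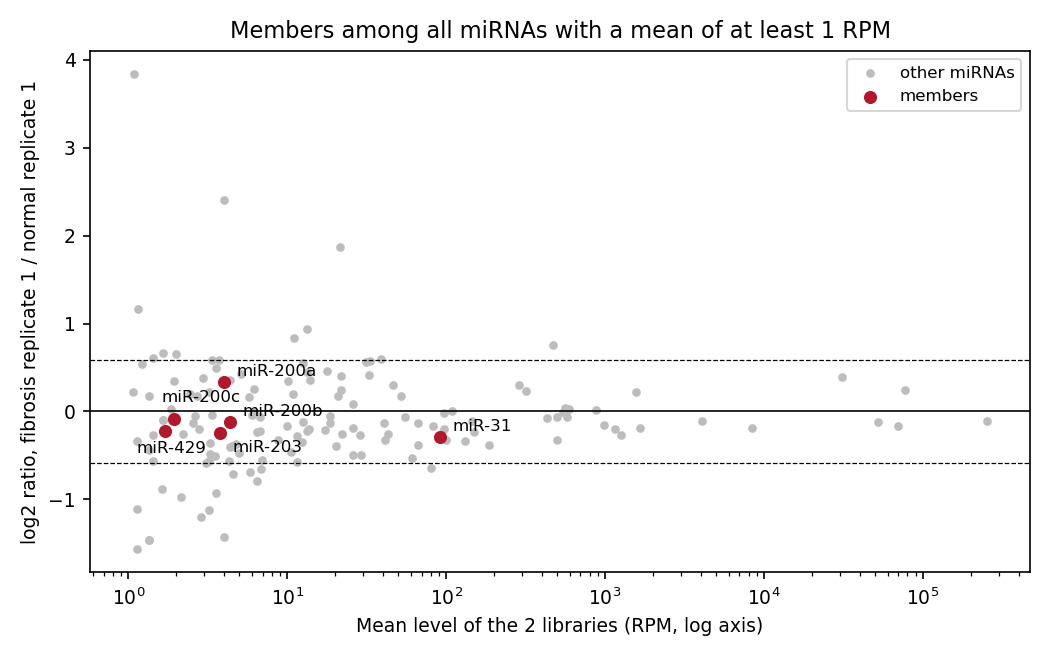
log2 ratio of fibrosis replicate 1 over normal replicate 1 against the mean level of the 2 libraries (RPM, log axis) for the 147 miRNAs that averaged 1 RPM or more. Red points are the 6 members among them and grey points the other miRNAs, and dashed lines mark a 1.5-fold difference. All 6 members lie between the dashed lines.

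The duplicated library moved several of these values, and under neither of its labels did it give the family a ratio with an interval that excluded 1. Taken under its fibrosis label it stood at 0.728 of normal replicate 1 for the family (0.509 to 1.04), and taken under its normal label it left fibrosis replicate 1 at 1.397 times its level (0.983 to 2.0). The direction of the family difference thus turned with the label. The 2 comparisons share this library with each other, and each shares its other library with the comparison above. Against normal replicate 1, 2 of 6 members, miR-200b (0.591, 0.308 to 1.10) and miR-200c (0.556, 0.190 to 1.47), were lower by more than 1.5-fold in the duplicated library, as were 28.4% of 148 miRNAs. For fibrosis replicate 1 over the duplicated library, miR-200b (1.56, 0.829 to 3.03) and miR-200c (1.70, 0.630 to 5.03) were again the 2 of 6 members past 1.5-fold, here higher, as were 17% of 147 miRNAs. miR-31 was higher in the duplicated library than in normal replicate 1, at a ratio of 1.13 (1.02 to 1.26), and lower in fibrosis replicate 1 than in the duplicated library, at 0.722 (0.646 to 0.807). It was the only member whose interval excluded 1 in each of the 3 comparisons, beside 48% of all miRNAs with the duplicated library over normal replicate 1 and 42.9% with fibrosis replicate 1 over the duplicated library. It is also the member with the most reads.

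**Figure D4:**
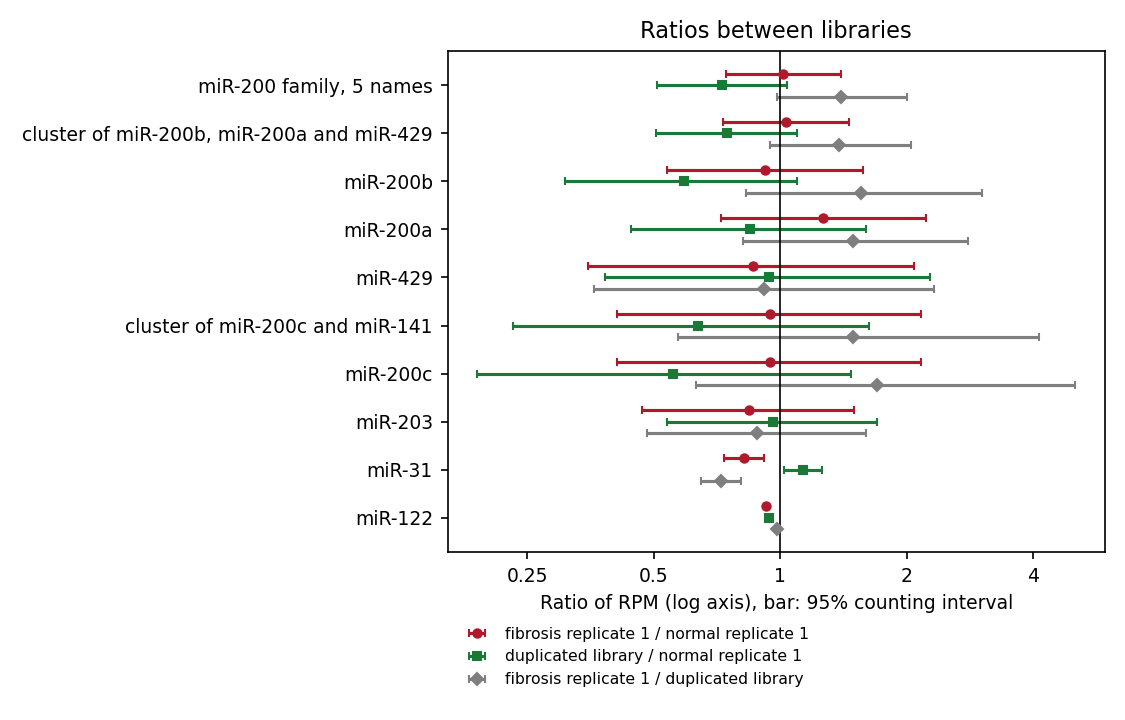
Ratio of RPM (log axis) between pairs of the 3 libraries for the miR-200 family, its clusters and members, miR-203, miR-31 and, for scale, miR-122, with 95% counting intervals as bars. Circles are fibrosis replicate 1 over normal replicate 1, squares the duplicated library over normal replicate 1 and diamonds fibrosis replicate 1 over the duplicated library. Each family interval includes 1, while the 3 intervals of miR-31 do not and lie on both sides of it.

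With the duplicated library counted once, a fit across all miRNAs could be made under either label, which takes the spread of the group of 1 library from the other group. limma on log2(RPM + 1) called 0 of 294 miRNAs (0%) at an adjusted p under 0.05 with it counted as fibrosis, with 36 at an unadjusted p under 0.05, and 0 of 294 (0%) with it counted as normal, with 27. edgeR's quasi-likelihood test on the recovered reads also called 0 in both layouts, with 9 and 1 at an unadjusted p under 0.05, and DESeq2 called 1 (0.34%), which is no member, and 0, with 4 and 0. The filter, any read in any library, was passed by 7 members. Counted as fibrosis, the log2 difference on that scale was -0.34 for miR-200b (SE 0.37, adjusted p 0.723 by limma) and 0.041 for miR-200a (SE 0.35, adjusted p 0.963 by limma). Counted as normal, it was 0.20 for miR-200b (SE 0.44, adjusted p 0.925 by limma) and 0.36 for miR-200a (SE 0.27, adjusted p 0.892 by limma), so that miR-200b changed direction with the label. For miR-31 the log2 difference was -0.052 with the library counted as fibrosis (SE 0.31, adjusted p 0.941 by limma) and -0.37 with it counted as normal (SE 0.16, adjusted p 0.798 by limma). The spread behind these p-values comes from a single pair, the duplicated library with fibrosis replicate 1 or with normal replicate 1. It may be technical. Where the label given to the duplicated library is not its tissue, the spread also holds any difference between the tissues. Which layout this affects is not settled, so these p-values cannot be read as a test against the spread within a tissue.

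A mixed list of other miRNAs, not all particular to epithelia or glands, lay on both sides of 1 between fibrosis replicate 1 and normal replicate 1. Of 10 names (miR-182, miR-183, miR-96, miR-375, miR-7a, miR-7b, miR-210, miR-192, miR-194 and miR-215), 9 had reads, and of these 4 were higher and 5 lower in fibrosis replicate 1. Over all names, 134 were higher and 143 lower. Of the 4 higher names, miR-183, miR-96 and miR-215 had 3 reads or fewer in either library, which leaves only miR-375. Of the 5 that averaged 1 RPM or more, 4 were lower and 1 higher, with a median log2 ratio of -0.48, where 95 of all 147 miRNAs were lower and the median was -0.13. The intervals of 2 of the 5, miR-192 and miR-194, which hepatocytes also hold, excluded 1, a share close to the 36.1% over all miRNAs. The miR-183 cluster, known from sensory epithelia, was near the limit of detection: miR-182 had 6 reads in fibrosis replicate 1, 4 in the duplicated library and 8 in normal replicate 1, miR-96 had 2 in each, and miR-183 had 1, 0 and 0. miR-375, best known from pancreatic islets, stood at 11.4 RPM in fibrosis replicate 1 (79 reads), 4.405 RPM in the duplicated library (28 reads) and 8.91 RPM in normal replicate 1 (63 reads). It was thus lowest in the library that also held the fewest family reads, at 0.494 of normal replicate 1 (0.305 to 0.783). Such a fall was not particular to miR-375. In that comparison 42 of 148 miRNAs (28.4%) were 1.5-fold or more lower, and 44 (29.7%) had an interval below 1. Of the 10 listed names, 6 were lower there and 2 higher. Over all names, too, more were lower than higher in that comparison. The 2 higher names, miR-96 and miR-215, had 2 reads in each of these libraries, so they were higher only through the library totals.

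Sums of marker miRNAs of other cell types varied from library to library. They carry no intervals, and not every difference was beyond counting error. The 3 hepatocyte names summed to 251792 RPM in fibrosis replicate 1, 255470 RPM in the duplicated library and 272148 RPM in normal replicate 1. The 5 mesenchymal names summed to 669, 1009 and 466 RPM in the same order. Most of this was miR-199a-3p, at 592, 903.4 and 350.5 RPM, followed by miR-143, at 62.1, 91.2 and 97.3 RPM. The 4 leukocyte names summed to 41.9, 59.6 and 28 RPM, nearly all of it miR-142-5p. In fibrosis replicate 1 and in the duplicated library, 3 of them were higher than in normal replicate 1 and 1 was lower. The lower name was miR-142-3p, at 3, 4 and 5 reads in the same order of libraries. The 2 endothelial names summed to 7.77, 10.9 and 6.51 RPM and the 2 erythroid names to 2.88, 2.04 and 7.78 RPM. Both endothelial names had ratios with intervals that included 1 in all 3 comparisons. The duplicated library had the highest mesenchymal, leukocyte and endothelial sums of the 3 and the lowest miR-200 family sum. The family's ratios had intervals that included 1 in all 3 comparisons. The mesenchymal names did not share a direction: 2 were higher and 3 lower than in normal replicate 1, both in fibrosis replicate 1 and in the duplicated library, where miR-145 stood at a ratio of 0.505 (0.345 to 0.728). The part of these differences in the values of the family and of miR-31 was not tested.

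Among 72 other miRNAs that averaged 10 RPM or more, those whose levels over the 3 libraries were most like the family's were miR-103, miR-185, miR-674-5p, miR-30d and miR-221. Likeness was the Euclidean distance between log2 levels centred on their mean, which was 0.013 for miR-103, 0.046 for miR-185, 0.093 for miR-674-5p, 0.097 for miR-30d and 0.13 for miR-221, against a median of 0.46 over the 72. miR-103 stood at 595 RPM in fibrosis replicate 1, 430 RPM in the duplicated library and 584 RPM in normal replicate 1. With only 3 libraries, and 55 to 84 family reads in each, such a distance is a description.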

How the data were processed

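Small RNA of total RNA from rat liver was sequenced on Illumina libraries, per the labels' protocols. CASAVA 1.4 and build rn5 are named, per the submitters' processing notes. Not given in the sources used here are the aligner, the miRNA annotation and how reads that match several miRNAs were assigned. The authors deposited RPM values for 680 names in each of 4 files. Whole reads were recovered by finding the total for which every value is a whole number of reads, which held for 100% of the values above 0 within 0.01 reads. Listed miRNAs took 50.5% to 52.5% of these totals.

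The second files of both groups are identical and were counted once. Their column headers differ, and that of normal replicate 2 is not its title. Ratios of RPM carry exact binomial (Clopper-Pearson) intervals. The test was limma 3.58.1 (log2 of RPM plus 1, trended variance, Benjamini-Hochberg adjustment) over miRNAs with a read in any library. A run on simulated data set a requirement only on the log2 difference of raised names. It set none on how many changed or unchanged names were called. Alternatives on the recovered reads used edgeR 4.0.16 (quasi-likelihood) and DESeq2 1.42.0. R 4.3.3, Python 3.11.15 and scipy 1.17.1 were used. Members, marker lists and tests were chosen with earlier results of these data known. The text names all 8 members, their asterisk arms, the lists and the 5 miRNAs most like the family. Sequences came from RefSeq tables of build GRCr8, which is not the build of the files.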

Additional observations from a re-analysis of the deposited data

How the results depend on the processing

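Over 5 other scalings the ratio between fibrosis replicate 1 and normal replicate 1 ranged from 0.968 to 1.07 for the family, from 0.982 to 1.08 for the cluster of miR-200b, miR-200a and miR-429, and from 0.899 to 0.990 for the cluster of miR-200c and miR-141, all inside the counting intervals. miR-31 stayed below 1, from 0.780 to 0.858. The libraries mattered more. Without fibrosis replicate 1 or normal replicate 1, with the duplicated library in its place, the ratio ranged from 0.728 to 1.397 for the family, from 0.747 to 1.38 and from 0.636 to 1.49 for the clusters, and from 0.722 to 1.13 for miR-31, which was above 1 (1.13) without fibrosis replicate 1. The count of miRNAs past 1.5-fold, 28 at a mean of at least 1 RPM, was 47 to 62 without either library, 6 of 76 at a mean of at least 10 RPM and 134 of 277 with no minimum.

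With the duplicated library counted as fibrosis, DESeq2 called 1 miRNA where limma called 0, and the log2 difference of miR-31 was 0.028 with edgeR and 0.059 with DESeq2, against -0.052 with limma. The cause was not tested. Pseudocounts of 0.5 and 10, a minimum mean of 1 RPM and these count tests turned no other member and called none. Adding the asterisk arms left the share of the miR-200c and miR-141 cluster in the family at 13.3%, 12.3% and 15.1% in fibrosis replicate 1, the duplicated library and normal replicate 1. No paired analysis was possible because the labels describe no pairing between the groups. With the identical second files counted once, the groups share only replicate number 1, which is not by itself a pairing. At its low level the family had 84 reads or fewer a library at these depths, which limits what its ratios can resolve.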
